A study of Mus musculus with 12 samples.

Results

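The second internal transcribed spacer (ITS2) is the stretch of the mouse ribosomal RNA (rRNA) precursor that lies between 5.8S and 28S rRNA. It was taken as positions 7055 to 8120 of the 13400-nt reference sequence on which the deposited read depths are given, that is 1066 of 13400 positions, with the first 25 nt after 5.8S left out. The edges of 5.8S and 28S came from steps of the depth profile averaged over all 12 libraries, so that ITS2 is shallower than its neighbours follows from the choice of positions and is not a result. Positions count from 1 at the start of that reference, whose name is not given in the sources used here.

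ITS2 is transcribed as part of the long precursor made by RNA polymerase I. It holds 5.8S and 28S together until an endonuclease cuts within it, after which exonucleases trim the remaining pieces back to the 3′ end of 5.8S and the 5′ end of 28S. Removal of ITS2 belongs to the making of the large ribosomal subunit, whereas the 5′ external transcribed spacer (5′ETS) is removed on the way to the small subunit and ITS1 separates these 2 pathways. Depth over ITS2 counts RNA that still held it, whether in uncut precursors or in pieces of the spacer.

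The study addressed whether loss of eIF3m, a subunit of translation initiation factor eIF3, is accompanied by a change in rRNA processing. Hepa1c1c7 cells, an established mouse hepatoma line, had received 10 uM of a scrambled luciferase siRNA (control) or of Eif3m siRNA, and their nuclear RNA was sequenced after 3 days. FVB/N mice aged 6 to 8 weeks had been given the same kinds of siRNA in lipid nanoparticle formulations at 0.5 mg/kg by tail vein for 13 days, and RNA of ground frozen liver was sequenced. Each of the 4 groups held 3 libraries, and rRNA was not depleted in any of them. The labels do not say whether replicates came from separate cultures, so p-values measure the spread between these libraries. Liver is a mixture of cell types, and a change in the share of cells that make rRNA cannot be told apart from a change per cell. Eif3m itself was not measured in these data, which hold rRNA alone.

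Mean depth over the whole reference ran from 10462 to 15537 reads per position in cells and from 26971 to 46799 in livers. ITS2 depth is given below as a percent of that mean in each library (the ITS2 level), which removes sequencing depth. Behind these values lay 891 to 4687 reads per ITS2 position in cells and 154 to 366 in livers, and no ITS2 cell of the table was empty. The lowest depth at any ITS2 position was 209 reads in cells and 44 in livers.

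In Hepa1c1c7 cells ITS2 was several times deeper after Eif3m siRNA. The ITS2 level was 8.52%, 11.8% and 9.86% of mean depth in the control libraries. It was 30.2%, 21.7% and 26.5% in the Eif3m siRNA libraries, so the lowest knockdown library stood well above the highest control. The group means were 10.1% ± 1.7 and 26.1% ± 4.2 (SD, n = 3 each). This is a 2.59-fold rise (log2 1.38 ± 0.19, SE). Of all sequenced rRNA depth, ITS2 took 0.801% in control cells and 2.08% after knockdown. The exact two-sided permutation test gave p = 0.1 (0.167 after Benjamini-Hochberg adjustment over 5 ITS2 measures), and 0.1 is the smallest p that 3 libraries against 3 allow.

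In liver ITS2 was much scarcer and its rise after knockdown was smaller. Control livers had ITS2 levels of 0.513%, 0.573% and 0.444%. Eif3m siRNA livers had 0.782%, 0.672% and 0.631%. The groups did not overlap, but control replicate 2 and Eif3m siRNA replicate 3 lay close together. Group means were 0.510% ± 0.064 and 0.695% ± 0.078 (SD, n = 3 each). The rise was 1.36-fold (log2 0.45 ± 0.14, SE) with an exact permutation p of 0.1 and an adjusted p of 0.167. Set against 28S depth alone, the log2 difference was 0.56 in liver and 1.46 in cells.

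**Figure D1:**
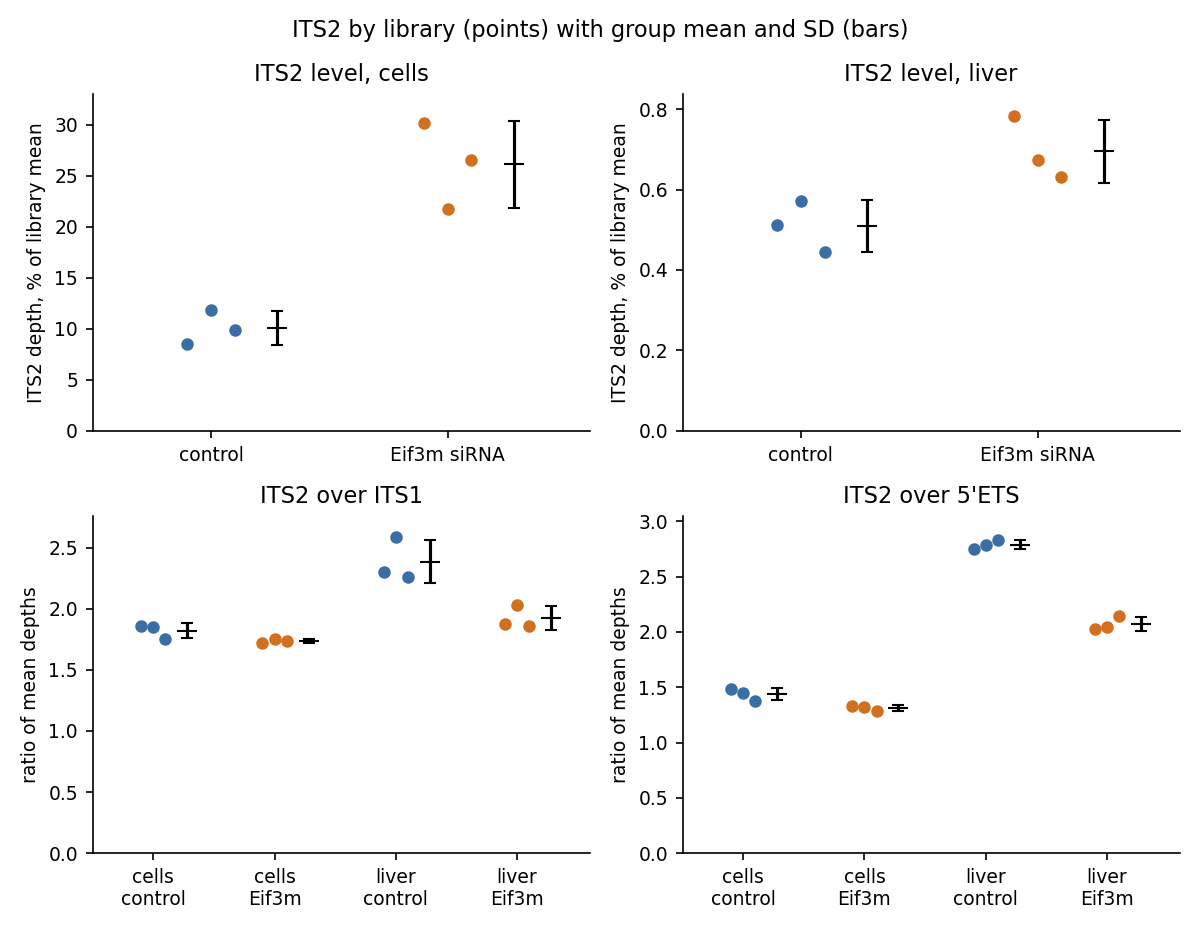
ITS2 depth by library. The upper panels show the ITS2 level in percent of the library's mean depth, with separate axes for cells and liver; the lower panels show ITS2 depth divided by ITS1 depth and by 5′ETS depth. Points are libraries, and the bar beside them is the group mean with its SD (n = 3). In both systems every Eif3m siRNA library lies above every control in ITS2 level and below every control in both ratios.

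Over both systems, with labels exchanged only within cells and within liver, the ITS2 level rose 1.88-fold on average (log2 0.91 ± 0.12, SE). All 6 knockdown libraries lay above all controls of their system, and the exact permutation p was 0.005, the smallest possible (adjusted p = 0.00833). With labels exchanged only between libraries of the same replicate number, the adjusted p was 0.0521 for this level and for each of the ratios to ITS1 and 5′ETS described next, at the smallest p that such pairs allow (exact sign-flip permutation p = 0.03125). Whether the numbers pair the libraries was not settled by the labels or the data. The change was 0.93 ± 0.24 (SE) smaller in liver than in cells on the log2 scale. The exact permutation test of that difference did not pass (p = 0.15, adjusted p = 0.25). This test keeps the change that both systems share in its reference. Where both systems separate their groups in the same direction, as here, it cannot give p under 0.05, whatever the size of the difference. Its p therefore does not show that the changes were equal. Cells and livers also differed in RNA fraction, dose and time, so the source of any difference between them cannot be told apart.

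ITS2 rose less than ITS1 and the 5′ETS. Against the short 3′ETS, which follows 28S, neither system separated its groups: ITS2 over 3′ETS was 22.4, 23.5 and 20.3 in control cells and 20.6, 19.5 and 20.5 after knockdown, and 19.7, 28.7 and 28.2 in control livers and 22.2, 23.1 and 24.3 after knockdown. This ratio was not tested. Liver ITS2 itself had 154 to 366 reads per position, so the 3′ETS there held few reads. The lack of separation in liver therefore does not show equal changes. In control cells ITS2 was 1.86, 1.85 and 1.75 times as deep as ITS1, which separates 18S from 5.8S. After knockdown the ratio was 1.72, 1.75 and 1.73. The highest knockdown ratio lay just under the lowest control, and the log2 difference was -0.07 ± 0.03 (SE). Control livers had ratios of 2.30, 2.59 and 2.26, and Eif3m siRNA livers 1.88, 2.03 and 1.86, a clearer separation with a log2 difference of -0.31 ± 0.07 (SE). Each system by itself gave an exact permutation p of 0.1 for this ratio, and both together gave -0.19 ± 0.04 (SE; exact permutation p = 0.005, adjusted p = 0.00833). That call depended on the average used: with median in place of mean depths the difference over both systems was -0.13 (exact permutation adjusted p = 0.1), and in cells it was -0.01. Without the last ITS2 position, a choice made after seeing the data, the groups overlapped in cells (log2 difference -0.06, exact permutation p = 0.2). Over both systems the difference without it was -0.17 (exact permutation adjusted p = 0.0167).

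Against the 5′ETS, the long leader before 18S, the same order was seen with more separation. Its first 1000 nt were left out of the ratio. ITS2 over 5′ETS was 1.49, 1.45 and 1.38 in control cells and 1.33, 1.32 and 1.29 after knockdown. In livers it was 2.75, 2.79 and 2.83 against 2.02, 2.05 and 2.14, so that the control livers lay within a narrow range far above the knockdown livers. The log2 difference was -0.13 ± 0.04 (SE) in cells and -0.43 ± 0.03 (SE) in liver (exact permutation p = 0.1 each). Over both systems it was -0.28 ± 0.02 (SE; exact permutation p = 0.005, adjusted p = 0.00833), and with median depths it was still -0.28 (adjusted p = 0.0125). Liver minus cells, the differences were -0.24 ± 0.08 for ITS2 over ITS1 and -0.30 ± 0.05 for ITS2 over 5′ETS (SE), and neither passed the exact permutation test (adjusted p = 0.25 each). As for the level, both systems separated their groups in the same direction, so this test could not pass and does not show equal changes. Put as a share, ITS2 supplied 25.4% ± 0.7 of the depth of all spacers in control cells and 23.9% ± 0.2 after knockdown, and 35.3% ± 0.7 in control livers against 30.3% ± 0.4 after knockdown (SD, n = 3 each). ITS2 was a larger part of the spacer pool in livers than in cells, and its part was lower after Eif3m siRNA in both systems.

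The depth profile along ITS2 was uneven, and its outline recurred in every library. Depth was averaged in 21 consecutive windows of 50 nt from the first ITS2 position, which leaves the 16 nt next to 28S in no window. The deepest window in both systems was the last, at 8055 to 8104, with 24.6% ± 3.4 of mean depth in control cells and 1.36% ± 0.26 in control livers (SD, n = 3 each). The shallowest was at 7655 to 7704, with 3.25% ± 0.30 in control cells and 0.199% ± 0.026 in control livers (SD, n = 3 each). The deepest window held 7.56 times the depth of the shallowest in control cells and 6.83 times in control livers. Elsewhere there was a hump at 7205 to 7254 (14.7% in control cells, 0.594% in control livers) and a further hump at 7555 to 7604 (17.2% and 0.563%), with a trough at 7355 to 7404 (5.04% and 0.251%) separating them. The humps and the trough were singled out after their values were seen.

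**Figure D2:**
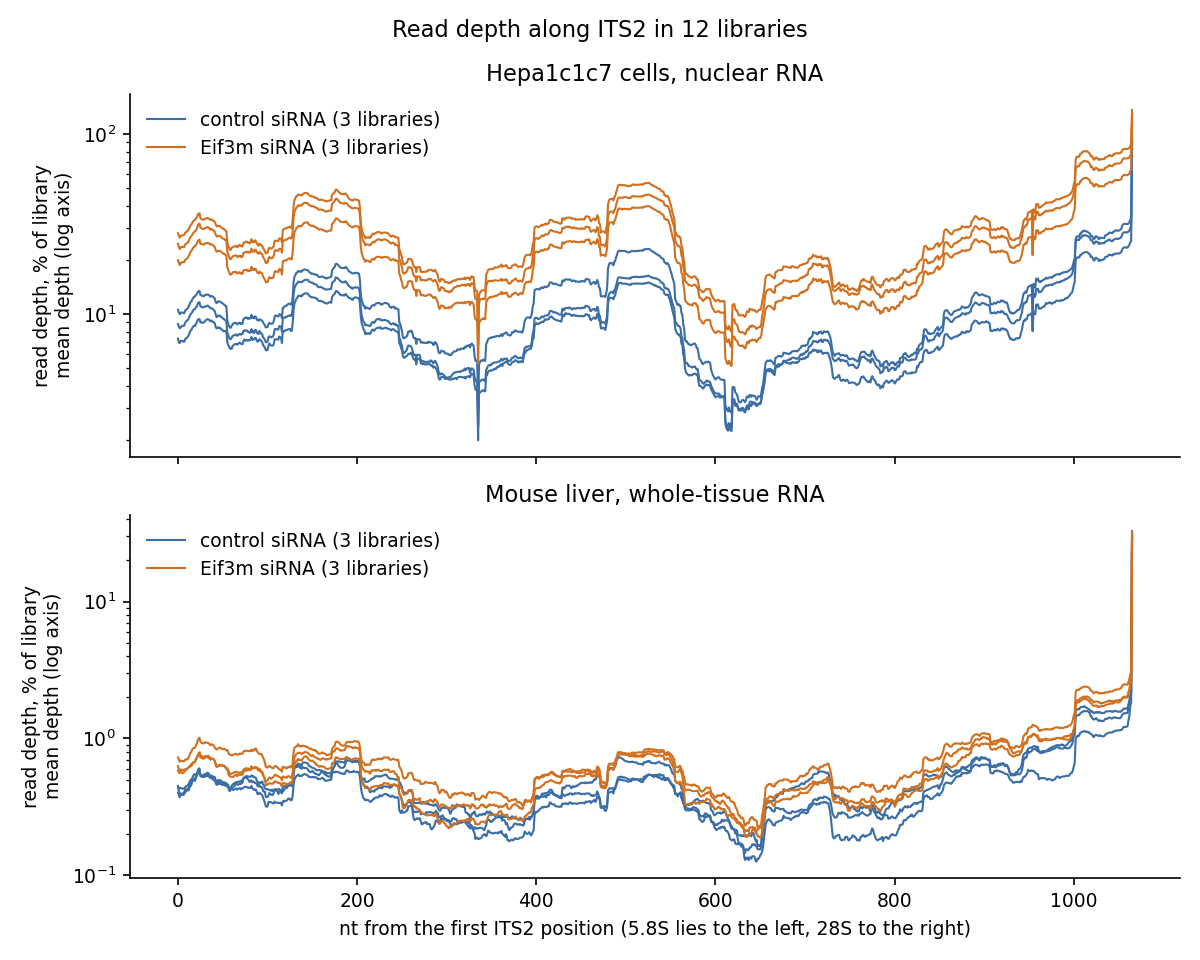
Read depth along ITS2, one line per library, as a percent of the library's mean depth on a log axis, from the first ITS2 position beside 5.8S (0) to the last beside 28S. Blue lines are control and orange lines Eif3m siRNA libraries, 3 each. In cells the orange lines run above the blue ones at every position with the same humps and troughs; in liver the lines come together in the first trough, and all lines climb steeply at the last position.

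In cells the windows rose by similar factors, and the last position, beside 28S, rose least. The log2 ratio of group means had a median of 1.38 over single positions and was lowest at the last, at 0.51. At all 1066 ITS2 positions the 3 knockdown libraries were deeper than the 3 controls, against 51.8% of all positions of the reference, a share that includes the other spacers. The same held in all 21 ITS2 windows, against 51.3% of all windows. limma, fitted on log2(scaled depth + 1) of 267 windows of the whole reference, called all 21 ITS2 windows higher at an adjusted p under 0.05, beside 50.9% of all windows. Their log2 changes ran from 1.32 to 1.46 with a median of 1.38, against a median of 0.32 over all windows tested. The 3 windows with the smallest change lay side by side, at 7405 to 7454 (1.32 ± 0.22, SE), 7455 to 7504 (1.33 ± 0.16) and 7505 to 7554 (1.34 ± 0.15). The 3 with the largest were 7855 to 7904 (1.46 ± 0.22, SE), 7905 to 7954 (1.45 ± 0.18) and the first window, 7055 to 7104 (1.43 ± 0.17). The difference between the largest and the smallest change was less than the SE of either window. Windows of a library share reads with their neighbours and rise and fall together. For this reason the adjusted p-values that limma gives to windows, here and for liver, are smaller than 3 libraries per group warrant. Their size also depends on the fit. In cells the median limma adjusted p of ITS2 windows was 1.8e-13 with the trend in eBayes and 0.00083 without it.

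In liver the rise was less even and did not separate the groups everywhere. The 3 knockdown livers were deeper than the 3 controls at 721 of 1066 positions (67.6%), beside 49.2% of all positions. At none of the 1066 were they all shallower, and the like share of all positions was not taken. The groups separated in 15 of 21 ITS2 windows, against 50.2% of all windows. limma called 15 of 21 ITS2 windows higher and none lower, beside 52.3% of all windows called higher and 18.5% called lower. Log2 changes ran from 0.30 to 0.57 with a median of 0.45, against 0.19 over all windows tested. The largest were at 7955 to 8004 (0.57 ± 0.16, SE; adjusted p = 0.0013), 8005 to 8054 (0.55 ± 0.16; adjusted p = 0.0013) and 7055 to 7104 (0.55 ± 0.17; adjusted p = 0.0034), that is towards both ends of ITS2. The first window stood at 0.489%, 0.485% and 0.497% in control livers and at 0.839%, 0.666% and 0.665% after knockdown, with no overlap.

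The liver windows that limma did not call lay in the first trough and around the second. Those with the smallest change were adjacent: 0.30 ± 0.20 at 7305 to 7354, 0.32 ± 0.21 at 7355 to 7404 and 0.37 ± 0.18 at 7255 to 7304 (SE; limma adjusted p = 0.18, 0.17 and 0.064). The remaining 3 were at 7605 to 7654, 7705 to 7754 and 7755 to 7804, with changes of 0.41, 0.39 and 0.41 and limma adjusted p of 0.051, 0.075 and 0.052. The longest run of positions with overlapping groups, 149 nt from 7260 to 7408, covers the first of these stretches. At 7305 to 7354 the control livers stood at 0.269%, 0.348% and 0.288% and the knockdown livers at 0.481%, 0.360% and 0.291%. Knockdown replicate 3 lay below control replicate 2 there. Without control liver replicate 2 the groups separated at 94.7% of ITS2 positions and limma called 90.5% of the ITS2 windows, beside 53.8% of all windows. Without Eif3m siRNA liver replicate 3 the groups separated at 89.6% of ITS2 positions, and limma called 76.2% of the ITS2 windows, beside 53.1% of all windows.

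**Figure D3:**
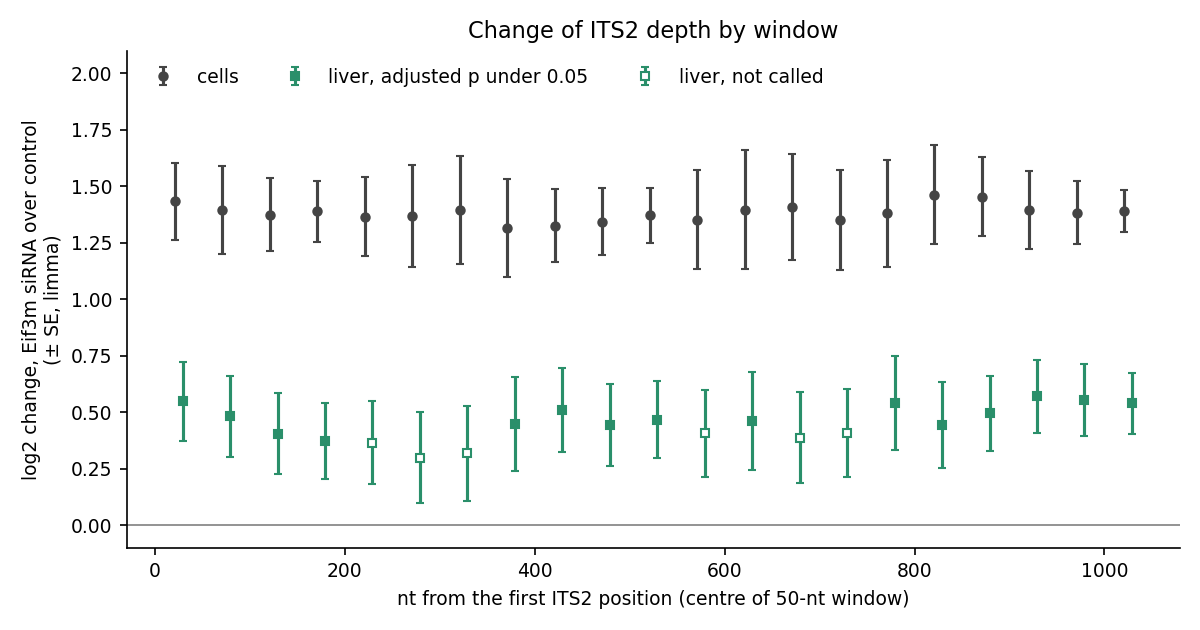
Log2 change of depth after Eif3m siRNA in each of the 21 windows of ITS2, with limma's SE. Circles are cells and squares livers; open squares mark the 6 liver windows with an adjusted p of 0.05 or more. Changes in cells lie between 1.32 and 1.46 along the whole spacer, and those in liver between 0.30 and 0.57.

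The liver calls depended on single libraries and on the scaling. The share of ITS2 windows called fell from 71.4% to 38.1% without control replicate 1, beside 49.2% of all windows, and to 33.3% without control replicate 3, beside 46.3%. It was 28.6% without Eif3m siRNA replicate 1, beside 44.6%, and 33.3% without Eif3m siRNA replicate 2, beside 48.5%. In these 4 fits a smaller share of ITS2 windows than of all windows was called. Median-of-ratios scaling over windows called none of them, beside 24.6% of all windows (limma, median change 0.18; 0 windows at an unadjusted p under 0.05), and it also moved the median of all windows from 0.19 to -0.08. Over both systems limma called all 21 ITS2 windows higher, beside 56.6% of all windows. The test of the difference between systems by limma called all 21 ITS2 windows as rising less in liver than in cells, beside 28.5% of all windows, with a median difference of -0.93 (log2). When 1 library was left out, this test called 85.7% to 100% of the ITS2 windows, beside 15% to 39.3% of all windows. The exact permutation test of the ITS2 level given above did not pass, but it could not have passed, as stated there, so it does not bear on these calls.

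The balance between the parts of ITS2 passed no test of a difference after knockdown, whereas the last position took a smaller share of ITS2 depth, as given with the border to 28S. ITS2 was divided into a 5′ part (7055 to 7409), a middle part (7410 to 7765) and a 3′ part (7766 to 8120) of nearly equal length. Depth of the 5′ part over the 3′ part was 0.779 ± 0.037 in control cells and 0.782 ± 0.012 with Eif3m siRNA (SD, n = 3 each), which differ by 0.01 ± 0.04 on the log2 scale (SE; exact permutation p = 1). In liver it was 0.582 ± 0.047 and 0.561 ± 0.034 (SD, n = 3 each), which differ by -0.05 ± 0.08 (log2, SE; exact permutation p = 0.7). Depth of the middle part over the outer parts differed by -0.03 ± 0.07 (SE; exact permutation p = 0.7) in cells and by 0.002 ± 0.086 (SE; exact permutation p = 1) in liver. Over both systems these differences were -0.02 ± 0.05 and -0.01 ± 0.06 (SE; exact permutation adjusted p = 0.795 each). Each library was also scaled to its own ITS2 depth, a form added after the data were seen. limma then called 0 of 21 ITS2 windows in cells and 0 in liver, and 0 in either system had an unadjusted p under 0.05. Of all windows it called 10.1% higher and 51.7% lower in cells, and 26.9% and 41.5% in liver. This scaling removes the change of ITS2 as a whole, so it compares only windows within ITS2.

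The size of sharp steps inside ITS2 was compared as well. A step was the mean log2(depth + 1) of the 20 nt to the right of a position less the same mean for the 20 nt on the left, and steps were placed on the mean of all 12 libraries. The largest rises began at 8057, 7710 and 7453, and the largest falls at 7611, 7259 and 7785. The fall at 7611, which ends the second hump, measured -1.08, -1.11 and -1.05 in control cells and -1.09, -1.16 and -1.08 after knockdown (log2). In control livers it was -0.57, -0.70 and -0.52 and in knockdown livers -0.56, -0.63 and -0.81, so it was shallower in every liver than in any cell library, whatever the siRNA. The rise at 8057, which opens the deep stretch before 28S, was 0.72 ± 0.04 in control cells and 0.74 ± 0.02 after knockdown, and 0.86 ± 0.11 and 0.88 ± 0.05 in livers (SD, n = 3 each). For the 6 steps the change over both systems lay between -0.05 and 0.05, and the exact permutation test passed none (adjusted p between 0.672 and 0.97, and 0 of 6 with an unadjusted p under 0.05).

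Control cells and control livers differed in both the amount and the shape of ITS2. Relative to mean depth, ITS2 was 19.7-fold lower in control livers, a log2 difference of -4.30 ± 0.17 (SE); nuclear RNA of cells and whole-tissue RNA of liver were compared here, and the RNA fraction cannot be told apart from the source. Among the spacers, ITS2 stood higher in liver relative to ITS1 (log2 difference 0.39 ± 0.07, SE) and relative to the 5′ETS (0.96 ± 0.03, SE). These differences were smaller without the last ITS2 position (0.31 and 0.88), a choice made after seeing the data. With median depths they were 0.30 and 0.80. The 5′ part over the 3′ part was lower in liver by 0.42 ± 0.08 and the middle part over the outer parts by 0.50 ± 0.10 (log2, SE). Both of these part ratios depended on the average: with median depths the differences were -0.27 and -0.15, and the second no longer separated the groups (exact permutation p = 0.2). Without the last position they were -0.27 and -0.41. With mean depths, for each of these 5 measures the 3 livers lay apart from the 3 cell libraries, with an exact permutation p and adjusted p of 0.1, the smallest possible. With the middle part at 23.3% ± 1.6 of ITS2 depth in control livers and 30.1% ± 1.8 in control cells (SD, n = 3 each), and the 3′ part at 48.5% ± 2.0 and 39.3% ± 1.9, liver ITS2 was weighted towards 28S.

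Each window was divided by the mean of its library's ITS2 windows. The control livers then lay all above the control cells in 6 of 21 windows and all below in 6. Dividing by that mean ties these counts together, since windows that stand higher force others lower. The livers were lower at 7155 to 7254 and from 7405 to 7604, where the difference reached -0.54 ± 0.08 (log2, SE) at 7455 to 7504. They were higher at 7105 to 7154, 7655 to 7704, 7755 to 7804 and from 7855 to 8004, with up to 0.35 ± 0.07 (log2, SE) at 7905 to 7954. These windows share reads and were not tested one by one. Over the 21 windows, profiles of control cells correlated with each other at r = 0.980 to 0.992, and with those of Eif3m siRNA cells at 0.988 to 0.997. Control livers correlated with each other at 0.945 to 0.965 and with knockdown livers at 0.960 to 0.991, and control cells with control livers at 0.841 to 0.935. These correlations are descriptions across windows of 1 reference, which share its base composition and mapping.

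**Figure D4:**
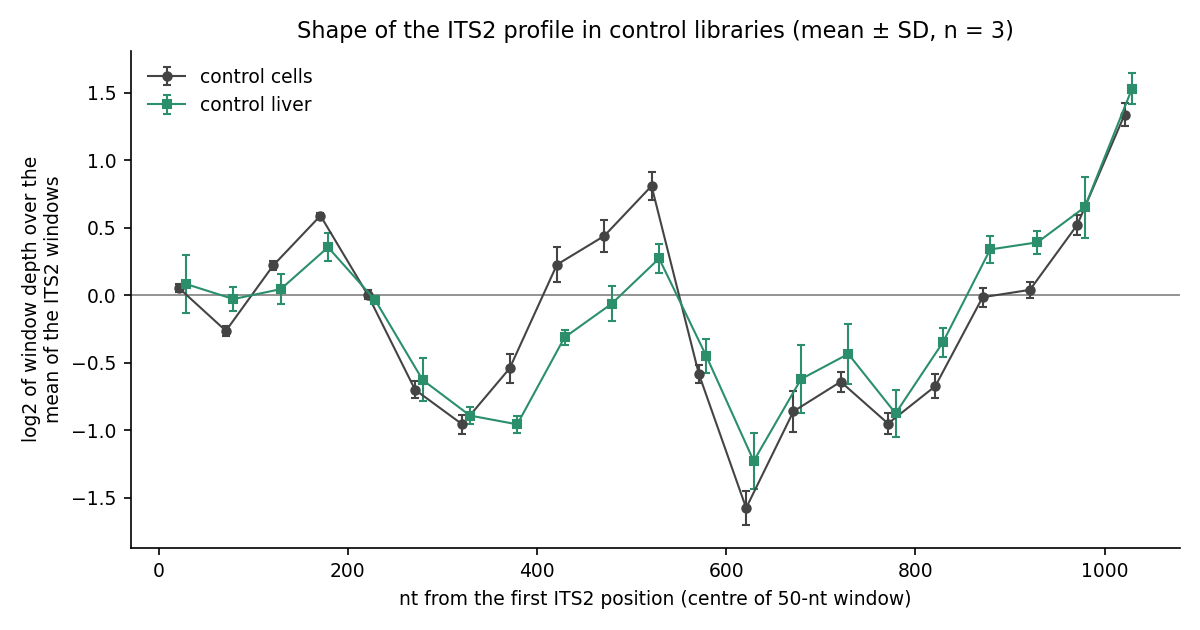
Shape of the ITS2 profile in control cells (circles) and control livers (squares): log2 of each window's depth over the mean of the library's 21 windows, as mean ± SD (n = 3). The livers lie below the cells over the second hump and on the rise to it, and above them over most of the stretch that climbs towards 28S.

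The border with 28S was placed where depth stepped most, so a step there follows from the choice of positions; its values are a description. At position 8119 depth was 30.0% ± 4.3 of mean depth in control cells and 2.06% ± 0.19 in control livers, and at 8120, the last position counted as ITS2, it was 90.2% ± 4.7 and 31.7% ± 0.9 (SD, n = 3 each). After Eif3m siRNA position 8119 rose with the rest of ITS2, to 75.6% ± 11.9 in cells and 2.81% ± 0.26 in livers (SD, n = 3 each). Position 8120 stood at 129% ± 8 in knockdown cells and 31.0% ± 1.3 in knockdown livers (SD, n = 3 each), so in liver it did not separate the groups. This 1 position supplied 5.90% ± 0.79 of the ITS2 depth of control livers and 0.850% ± 0.096 of that of control cells (SD, n = 3 each). After knockdown its share was lower, at 4.22% ± 0.56 in livers and 0.467% ± 0.052 in cells (SD, n = 3 each), with no overlap of the groups in either system. The deepest over the shallowest ITS2 position, the deepest being this one in every library, was likewise lower: 33.6 to 43.0 in control cells and 17.5 to 23.5 after knockdown, and 190 to 259 and 137 to 158 in livers. These shares and ratios were compared after their values were seen and were not tested. Without it, a choice made after seeing the data, the ITS2 level of liver was 0.481% ± 0.064 in control livers and 0.666% ± 0.079 with Eif3m siRNA (SD, n = 3 each), which differ by 0.47 ± 0.15 on the log2 scale (SE; exact permutation p = 0.1). The first 25 nt, beside 5.8S, had 0.960 ± 0.030 times the depth of the rest in control cells and 0.928 ± 0.161 times in control livers (SD, n = 3 each). The 25 nt nearest to 5.8S are not part of ITS2 as taken here, so both ends cannot be compared.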

How the data were processed

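The authors deposited 1 table of coverage signal, the whole number of reads over each of 13400 positions in 12 libraries, not scaled to library size. The submitters' processing notes name BWA 0.7.12 and SAMtools 1.3; for their options, the read length and the reference name, the sources used here give nothing. Columns were matched to samples by the code in the titles, and 85 empty cells, none in ITS2, were read as 0. Edges were placed where mean log2(depth + 1) stepped most, over 20 nt on each side. ITS1 was taken as 5883 to 6851 and the 5′ETS as 1001 to 4005. Exact two-sided permutation tests used log2 values, with 20 assignments within a system and 400 over both, and Benjamini-Hochberg adjustment over 5 measures. limma 3.58.1 in R 4.3.3 (lmFit, eBayes with trend) was fitted to 50-nt windows with mean depth of at least 10. Libraries were first brought to a common total depth, and a pseudocount of 1 was used. Both kinds of test were also run on simulated data. That run is no evidence that limma's p-values hold here, where windows share reads with their neighbours. Windows named in the text are the 3 largest and 3 smallest changes per system, the deepest and shallowest in controls, and the first and last; steps are the 3 largest rises and falls at least 50 nt apart. Members, measures and lists were chosen with earlier results of these data known. No 2 columns were identical; replicate pairs shared the same depth at 0 to 255 of 13400 positions. Precursor sequence was not used here.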

Additional observations from a re-analysis of the deposited data

Results flagged for a closer look

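The change of ITS2 after Eif3m siRNA stood out because it differed between liver and cells by limma's interaction test: over the 21 ITS2 windows the median difference, liver minus cells, was -0.93 on the log2 scale. In both systems the 3 knockdown libraries lay above the 3 controls. The exact permutation test of the ITS2 level did not pass for the same difference (p = 0.15), but it could not pass with groups separated in the same direction in both systems. The p-values that limma gives to windows are smaller than 3 libraries per group warrant, and RNA fraction, dose and time differ between the systems.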

How the results depend on the processing

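The direction of the ITS2 level, of ITS2 over ITS1 and of ITS2 over 5′ETS was the same under every alternative run. Without 1 library the log2 difference of the level was at least 1.26 in cells, 0.35 in liver and 0.85 over both systems. Same-numbered libraries gave a mixed check of pairing. Their deviations correlated at -0.78 to -0.015 over all windows and 0.28 to 0.60 over ITS2 windows in cells, and at -0.19 to 0.32 and -0.29 to 0.0017 in liver, so pairing was not settled. With the replicate block, signs flipped within numbers, the differences over both systems stayed 0.91 for the level, -0.19 for ITS2 over ITS1 and -0.28 for ITS2 over 5′ETS, and each lost its call (exact sign-flip adjusted p = 0.0521), since that test gives no p below 0.03125. limma with the block called 100% of ITS2 windows in cells and 90.5% in liver, beside 50.6% and 53.8% of all windows. With median depths ITS2 over ITS1 lost its call over both systems (-0.13). ITS2 windows called in liver ranged from 28.6% to 90.5% without 1 library and were 0% with median-of-ratios scaling (24.6% of all windows). Without the trend in eBayes they were 57.1% (46.9% of all windows). Scaled to ITS2 depth, which removes the change of ITS2 as a whole, 0% were called in cells, liver, both systems and their difference. In the same order, 10.1%, 26.9%, 28.5% and 68.9% of all windows were called higher, and 51.7%, 41.5%, 51.3% and 3.75% lower.

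Shape values that had passed no test turned sign in places. The 5′ over the 3′ part in cells turned to -0.038 with median depths, -0.0161 without 25 nt at each end and -0.0072 without the last position. The middle over the outer parts in liver turned to -0.0048, -0.021 and -0.031 in the same order, and to -0.0158 with a pseudocount of 10. Without 1 library the 5′ over the 3′ part ranged from -0.032 to 0.035 in cells, -0.092 to 0.014 in liver, -0.042 to 0.011 over both and -0.099 to 0.0069 for liver minus cells. The middle over the outer parts ranged from -0.098 to 0.027, -0.073 to 0.043, -0.052 to 0.014 and -0.042 to 0.10. The step at 8057 turned to -0.0011 over both systems with 50 nt on each side and to 0.0024 for liver minus cells with a pseudocount of 10. Without 1 library the change of the step over both systems ranged from -0.024 to 0.027 at 7259 and -0.0028 to 0.099 at 7785, and for liver minus cells from -0.043 to 0.059 at 8057, -0.0050 to 0.063 at 7453, -0.10 to 0.024 at 7611 and -0.017 to 0.086 at 7259. The cause of these changes was not tested. Liver ITS2 rests on 154 to 366 reads per position, which limits what single windows can show there.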

Other observations

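Depth fell under 0.9 times the mean of both neighbours in all 6 cell libraries at 6 of 1046 ITS2 positions with at least 50 reads, beside 62 of 10137 in the whole reference, so such notches were about as frequent elsewhere. In livers this held at 3 ITS2 positions and at 66 in all. Of the 6 positions, 8056 and 8119 were low in livers too, beside a rise and the 28S border, and 4 were low in cells alone; all were noticed after the values were seen. At position 7390 depth fell to 209, 387 and 309 reads in control cells, against 395, 730 and 545 at 7389 and 376, 701 and 529 at 7391. Eif3m siRNA cells had 1209, 724 and 891 reads at 7390, against 2091, 1266 and 1583 just before. Relative to the mean of both neighbours the depth at 7390 was 0.541 to 0.595 in the 6 cell libraries and 0.986 to 1.01 in the 6 livers, whichever siRNA had been given. A second single-position notch lay at 8009, with 0.778 to 0.796 in cells and 0.996 to 1.03 in livers. A further notch ran from 7666 to 7673: depth in control cell replicate 1 went from 363 reads at 7665 to 268 at 7666 and from 244 at 7673 to 336 at 7674, whereas control liver replicate 1 had 80, 76, 64 and 64 reads at these positions. No test was made of the notches, and their source was not tested.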
